A study of Mus musculus with 24 samples.

Results

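The subject is the loss of both REV-ERB receptors in the CCR6-labelled group 3 innate lymphoid cells (ILC3) of the mouse small intestine, read out as bulk RNA-seq counts over all genes. Its members are the 6 libraries labelled CCR6, chosen by their labels, of 24 libraries in the series. 3 were double knockout (DKO), with both NR1D1 and NR1D2 floxed (fl/fl) and crossed to Vav1-Cre, and 3 were wild type (WT), from fl/fl littermates, all at 8 to 12 weeks of age. The other 18 libraries are ILC1, NKp46 and DN populations of the same genotypes, with 3 libraries in each group. Vav1-Cre acts in all blood cell lineages, so the other immune cells of a DKO mouse carry the floxed alleles and the Cre too. The labels used here do not give sex, hour of collection, or whether a library held cells of 1 mouse.

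REV-ERBα (Nr1d1) and REV-ERBβ (Nr1d2) are nuclear receptors that bind heme and act as transcriptional repressors. In the circadian clock they oppose the ROR activators at shared response elements and feed back on the BMAL1 and CLOCK activator pair, whose E-box targets include the Per, Cry, DEC and PAR bZIP genes. CCR6-bearing ILC3 include the lymphoid tissue inducer-like (LTi-like) cells, known in the gut for lymphotoxin, IL-22 and IL-17 production, for MHC class II on part of the cells, and for their place in cryptopatches.

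Values are in CPM, read counts scaled to a common normalised library size, and the mean ± SD is over 3 libraries per group. Log2 fold changes run DKO over WT and carry ± SE from edgeR's quasi-likelihood test. A gene was called, and is said to have risen or fallen, at a Benjamini-Hochberg adjusted p under 0.05 over all 21286 genes tested. Total counts were 62.9, 55.0 and 41.7 M reads in DKO CCR6 libraries and 51.6, 84.4 and 72.9 M reads in WT CCR6 libraries. Ribosomal RNA took 2.43% to 3.59% of DKO counts and 2.02% to 2.08% of WT counts, and its part in the results was not tested. In bulk RNA, fewer cells of a type and less RNA per cell cannot be told apart.

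Ccr6 itself, the sorting marker, had 882, 702 and 714 CPM in DKO, against 1305, 1476 and 1417 CPM in WT. Every DKO library lay below every WT library, but the change of -0.87 ± 0.64 missed the threshold (adjusted p = 0.69). The SE rests on a spread estimated over all 24 libraries, not on the 6 CCR6 libraries alone. Of the 18 tested LTi-like markers, which include Ccr6, 5 fell in this fit and 12 in a fit of the 6 CCR6 libraries alone. The 2 fits also differed over all genes, with 846 of 21286 and 1723 of 18020 called. A missed threshold here does not show that Ccr6 was unchanged. Tbx21, the ILC1 factor, averaged 1.84 CPM in DKO against 1.37 CPM in WT (adjusted p = 0.91). Among the defining markers of T cells, Cd3e averaged 84.3 CPM in DKO against 82.9 CPM in WT and was not called. The T cell receptor gene Trac, at 14.6 CPM in DKO against 17.3 CPM in WT, was not called either. Other T cell receptor genes, not among the tested markers and chosen after their values were seen, were called. Trgj1 (2.06), Trgc1 (1.08) and Trgc3 (1.03) rose, and Trbj1-1 (-1.51) and Trbj1-2 (-1.54) fell. Of the 17 tested T cell markers, Lat and Bcl11b rose and Cd8a and Cd8b1 fell, and the summed level ran from 2887 to 3023 CPM in DKO libraries against 1028 to 1259 CPM in WT libraries, mostly Lat. The 12 B and plasma cell markers summed to 234 to 387 CPM in DKO against 435 to 1295 CPM in WT, with Cd79b fallen. The 17 myeloid markers summed to 34.5 to 41.8 CPM in DKO against 62.0 to 82.5 CPM in WT, with Itgax fallen. The 14 epithelial markers summed to 20.1 to 39.3 CPM in DKO against 11.0 to 16.7 CPM in WT, with Krt18 risen, and the 15 stromal and endothelial markers to 317 to 400 CPM in DKO against 218 to 264 CPM in WT, with Pdgfrb risen. The higher sums in DKO of the last 2 lists do not describe most of their members. The log2 change was below 0 for 8 of the 14 epithelial markers and 10 of the 15 stromal and endothelial markers. Only 4 and 5 of them averaged 1 CPM or more in either group. The part of these other cell types in the results was not tested. The calls of Bcl11b, Itgax, Krt18 and Pdgfrb each ended when 1 library was left out: Bcl11b without DKO replicate 3 and any WT replicate (adjusted p = 0.099 to 0.42) and with voom and the CCR6 libraries alone, Itgax without DKO replicates 1 and 2 and WT replicates 2 and 3 (adjusted p = 0.090 to 0.17) and with no filter, voom and the CCR6 libraries alone, Krt18 without DKO replicate 2 and WT replicates 1 and 2 (adjusted p = 0.14 to 0.16) and with no filter and Pdgfrb without any DKO replicate and any WT replicate (adjusted p = 0.10 to 0.18) and with no filter. Bcl11b then changed by 0.51 without DKO replicate 3, and Itgax by -5.92 without DKO replicate 3. The Cd8a call was lost with voom.

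The 2 targeted genes had more reads in DKO than in WT cells. Nr1d1 (chromosome 11, 98767932 to 98775333, minus strand, GENCODE M21 on GRCm38) had 1560.1, 1482 and 1459 CPM in DKO, against 539.6, 585 and 599 CPM in WT. The groups did not overlap, and the log2 fold change was 1.39 ± 0.21 (adjusted p = 1.4e-04). Nr1d2 (chromosome 14, 18204054 to 18239127, minus strand) had 72.2, 115 and 142 CPM in DKO, against 35.9, 37.6 and 39.4 CPM in WT, again without overlap, a change of 1.55 ± 0.36 (adjusted p = 0.013). The Nr1d2 call was lost without DKO replicate 3 and any WT replicate (adjusted p = 0.054 to 0.086) and with no filter. Counts per gene include reads of every exon, and the labels do not say which exons the floxed alleles remove, so these counts do not show how much intact transcript remained. Thra, the thyroid hormone receptor gene that lies beside Nr1d1 on the opposite strand and shares 263 exon bases with it, had 46.3, 49.8 and 58.5 CPM in DKO, against 14.1, 16.7 and 13.8 CPM in WT, a change of 1.79 ± 0.25 (adjusted p = 4.8e-05). Reads in the shared bases cannot be told apart without strand. Vav1, whose regulatory sequence drives the Cre, averaged 246 ± 21.3 CPM in DKO and 249.9 ± 24.2 CPM in WT (adjusted p = 0.99).

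Across all genes, 846 of 21286 (3.97%) were called in CCR6 cells, 411 of them higher (1.93%) and 435 lower (2.04%) in DKO. The median log2 change of all tested genes was -0.02. Among the called genes the median size of the change was 1.35 for those that rose and 1.28 for those that fell. A change of 3 or more on the log2 scale was seen in 97 genes that rose and 51 that fell. The 3 DKO libraries did not overlap the 3 WT libraries for 408 of the 411 genes that rose and 432 of the 435 that fell, where 24.8% of all tested genes had no overlap. Of the genes that rose, 27 stood below 1 CPM in WT and at 5 CPM or more in DKO, and 17 of those that fell showed the reverse. The count of called genes was 573 to 635 with any 1 CCR6 library left out. It was higher with DESeq2 (1330), limma voom (1720) or a fit of the 6 CCR6 libraries alone (1723 of 18020 tested). List counts from these fits are to be set beside their own totals. The counts of called list members below are to be set beside the 3.97% of all tested genes. The share is higher among expressed genes: with a filter of 5 CPM in 3 libraries, 958 of 11282 were called.

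**Figure D1:**
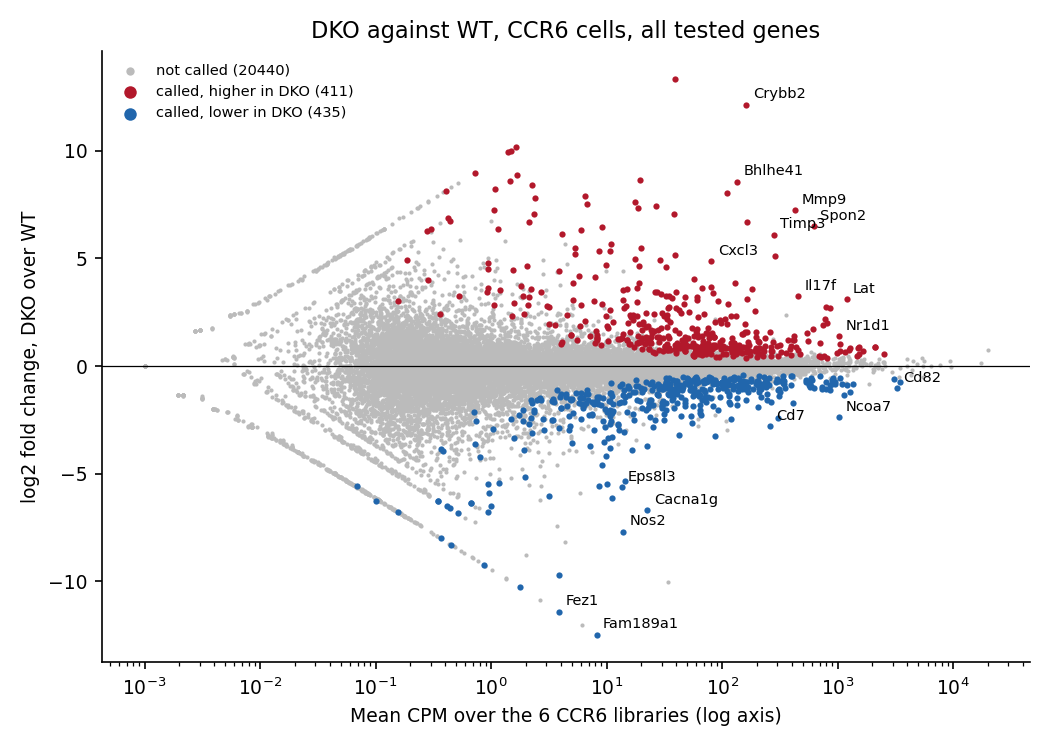
Each point is 1 of the 21286 tested genes, with its mean CPM over the 6 CCR6 libraries on a log axis against its log2 fold change, DKO over WT, on the vertical axis; called genes are coloured, 411 higher and 435 lower. Called genes run from under 1 CPM to over 1000 CPM, and the labelled genes are described in the text.

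Clock repressor and output genes were higher in DKO cells: 7 of 16 tested members rose, where 1.93% of all genes did, and the median log2 change over the list was 1.09. Bhlhe41, encoding the DEC2 repressor that competes for E-boxes, had 247, 281 and 282 CPM in DKO, against 0.931, 0.353 and 0.883 CPM in WT, a change of 8.57 ± 0.56 (adjusted p = 1.3e-09). Tef, a PAR bZIP activator that binds D-boxes, had 47.9, 64.8 and 87.5 CPM in DKO, against 9.99, 4.01 and 8.40 CPM in WT, a change of 3.16 ± 0.39 (adjusted p = 1.2e-05). In both genes the DKO libraries stood far above the WT libraries. The 2 other PAR bZIP genes rose as well, Dbp by 3.21 ± 0.42 (adjusted p = 2.5e-05; 86.4 CPM in DKO against 9.39 CPM in WT) and Hlf by 3.69 ± 0.36 (adjusted p = 4.5e-07; 147 CPM in DKO against 11.4 CPM in WT). Per3, a period gene, averaged 62.5 ± 6.97 CPM in DKO and 6.58 ± 1.32 CPM in WT, and Ciart, which represses the CLOCK and BMAL1 pair, averaged 26.9 ± 2.64 CPM in DKO and 5.47 ± 0.588 CPM in WT. Both rose, by 3.25 ± 0.30 (adjusted p = 2.5e-07) and 2.30 ± 0.26 (adjusted p = 4.6e-06). Per2 averaged 25.7 ± 6.59 CPM in DKO and 3.68 ± 0.659 CPM in WT, with every DKO library above every WT library (2.80 ± 0.75, adjusted p = 0.034), but its call was lost without any DKO replicate and any WT replicate (adjusted p = 0.066 to 0.17) and with no filter.

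Among the 10 clock activators and genes that REV-ERBs are known to repress directly, 3 rose and 1 fell, with a median of 0.72. Npas2, the CLOCK paralog, averaged 72.5 ± 13.6 CPM in DKO and 11.8 ± 3.67 CPM in WT (2.62 ± 0.47, adjusted p = 0.0012). Cry1, a cryptochrome repressor that REV-ERBs control through an intron site, had 23, 21.6 and 26.8 CPM in DKO, against 7.14, 8.92 and 7.89 CPM in WT, without overlap (1.58 ± 0.26, adjusted p = 5.5e-04). Nfil3, the bZIP repressor that ILC precursors need, had 163, 178 and 175 CPM in DKO, against 65.2, 89.5 and 56.5 CPM in WT, also without overlap (1.29 ± 0.22, adjusted p = 6.9e-04). Arntl, which encodes BMAL1 and is a textbook REV-ERB target, had 75.8, 88.6 and 94.2 CPM in DKO, against 60.4, 89.4 and 84.1 CPM in WT. Its groups overlapped, and the difference of 0.14 ± 0.28 did not pass (adjusted p = 0.94). Clock itself averaged 25.0 ± 3.67 CPM in DKO and 27.7 ± 5.14 CPM in WT (-0.15 ± 0.28, adjusted p = 0.94).

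**Figure D2:**
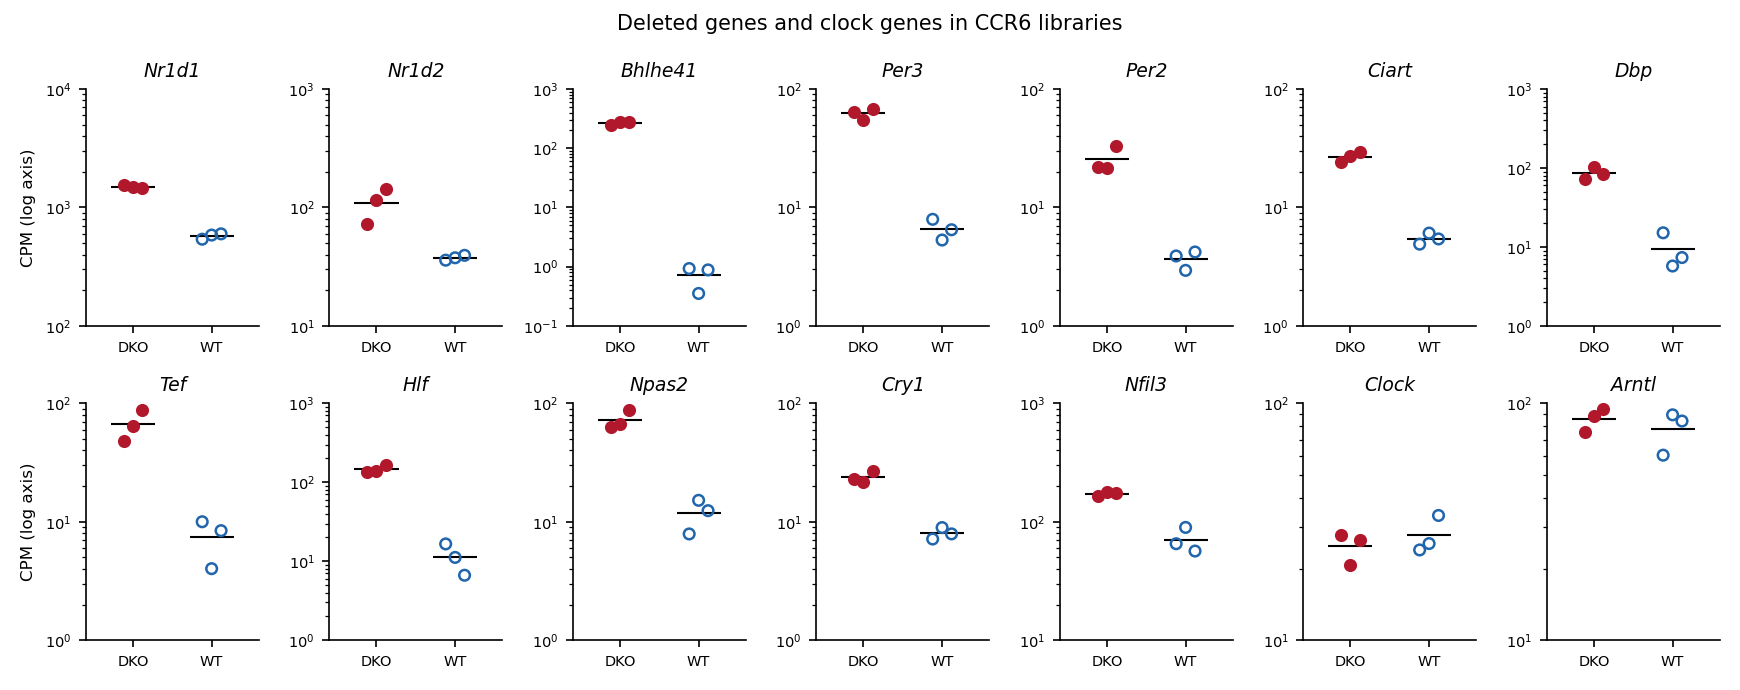
CPM on a log axis in each of the 3 DKO (left, filled) and 3 WT (right, open) CCR6 libraries for the deleted genes and the clock genes named in the text; horizontal bars are group means. DKO libraries lie above WT libraries in every panel but those of Clock and Arntl, where the groups overlap.

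The promoters of these genes are shown because the REV-ERB response element and the E-box can be read in them. Sequences are RefSeq's, on GRCm38.p6, 250 bases before to 50 after the annotated start, 5′ to 3′ on the gene's strand. The table gave a promoter for 313 of the 411 genes that rose and 325 of the 435 that fell. Capitals mark the E-box CACGTG in the first 3 (chosen after their values were seen) and the response element core, TAGGTCA on the opposite strand, in Nfil3. Ciart holds E-boxes 116, 58 and 44 bases before its start, Bhlhe41 1 at 153 and Tef 1 at 127 bases before the start, and the core in Nfil3 lies 12 bases before the start.
Ciart, chr3:95882179-95882478, minus strand: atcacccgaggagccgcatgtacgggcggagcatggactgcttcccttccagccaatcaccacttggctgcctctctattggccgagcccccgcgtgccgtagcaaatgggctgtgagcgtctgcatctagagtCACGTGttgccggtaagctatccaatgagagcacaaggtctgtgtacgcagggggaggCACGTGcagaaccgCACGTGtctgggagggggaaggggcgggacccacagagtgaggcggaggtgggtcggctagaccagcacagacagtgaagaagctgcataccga
Bhlhe41, chr6:145865371-145865670, minus strand: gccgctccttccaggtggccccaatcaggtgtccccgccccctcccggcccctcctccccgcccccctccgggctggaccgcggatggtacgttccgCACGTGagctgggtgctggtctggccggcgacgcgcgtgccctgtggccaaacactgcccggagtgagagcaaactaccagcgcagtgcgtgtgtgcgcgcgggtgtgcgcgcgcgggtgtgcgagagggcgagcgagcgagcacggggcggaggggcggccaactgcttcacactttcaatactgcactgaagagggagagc
Tef, chr15:81802423-81802722, plus strand: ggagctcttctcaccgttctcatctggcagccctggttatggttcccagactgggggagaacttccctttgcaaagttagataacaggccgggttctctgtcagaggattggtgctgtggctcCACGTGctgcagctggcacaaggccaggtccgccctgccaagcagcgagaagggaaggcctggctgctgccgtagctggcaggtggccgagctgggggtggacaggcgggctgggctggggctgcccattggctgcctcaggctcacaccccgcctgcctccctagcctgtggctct
Nfil3, chr13:52980990-52981289, minus strand: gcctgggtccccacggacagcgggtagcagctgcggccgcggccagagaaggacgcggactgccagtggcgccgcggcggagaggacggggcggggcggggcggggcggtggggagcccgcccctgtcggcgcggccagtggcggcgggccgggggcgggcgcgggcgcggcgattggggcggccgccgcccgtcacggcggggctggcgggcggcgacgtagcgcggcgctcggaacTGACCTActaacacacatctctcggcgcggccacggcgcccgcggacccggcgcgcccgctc

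Of the promoters of genes that rose, of which a gene can have more than 1, 16% held CACGTG (68 of 425), against 7.14% of those of genes that fell (32 of 448) and 9.24% of those of all tested genes (1414 of 15300). The 7 letters TAGGTCA or TGGGTCA, read on both strands, were in 5.65%, 6.7% and 5.53% of the same promoters. The D-box letters TTATGTAA or TTACGTAA were in 0.941%, 0.223% and 0.758%. Beside Nfil3, the response element core was found at the starts of Csf2, Ifng and Cdcp1, which rose, and of Arntl, which was not called. The E-box letters were absent from the windows of Per3, Hlf, Dbp and Npas2, which rose, and present in those of Cry1, which rose, and of Per1 and Cipc, which were not called. A match says only that these letters are in this window.

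Secreted products changed in both directions. Of 23 tested effector cytokines and growth factors, 5 rose and 1 fell, with a median of 0.48. Il17f had 854, 898 and 710.5 CPM in DKO, against 119, 67.4 and 70.0 CPM in WT, without overlap (3.26 ± 0.56, adjusted p = 7.1e-04). Its neighbour Il17a stood at 135, 135 and 159 CPM in DKO, against 46.3, 25.5 and 21.3 CPM in WT. All 3 DKO values lay above WT, but Il17a missed the threshold (2.21 ± 0.64, adjusted p = 0.062). Csf2, encoding GM-CSF, through which ILC3 act on gut macrophages, had 83.7, 117 and 66.8 CPM in DKO, against 47.3, 26.8 and 22.2 CPM in WT (1.47 ± 0.29, adjusted p = 0.0026). Tnf rose by 0.98 ± 0.18 (adjusted p = 0.0012), averaging 186 CPM in DKO against 94.8 CPM in WT. Ltb, which encodes the membrane anchor of the lymphotoxin heterotrimer, fell: it had 993, 862 and 697 CPM in DKO, against 1348, 1261 and 1168 CPM in WT, without overlap (-0.57 ± 0.12, adjusted p = 0.0068). Its partner Lta averaged 162 ± 14.3 CPM in DKO and 211 ± 5.01 CPM in WT and did not pass (-0.38 ± 0.15, adjusted p = 0.22). Il22 spread widely in WT, with 1243, 1545 and 1239.6 CPM in DKO, against 3628, 2132 and 1460.0 CPM in WT. The groups overlapped (-0.84 ± 0.41, adjusted p = 0.39). Il2 and Ifng also rose, at low levels, 5.55 CPM in DKO against 2.59 CPM in WT and 5.54 CPM in DKO against 1.56 CPM in WT. Calls that ended without single libraries were those of Ltb without DKO replicate 3 (adjusted p = 0.063), Il2 without DKO replicates 1 and 2 and WT replicates 2 and 3 (adjusted p = 0.069 to 0.13) and with no filter and the CCR6 libraries alone and Ifng without any DKO replicate and WT replicates 2 and 3 (adjusted p = 0.066 to 0.21) and with no filter and the CCR6 libraries alone; the Ifng change was 3.52 without WT replicate 1.

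A cluster of neutrophil-attracting chemokine genes on chromosome 5, chosen after its values were seen, rose together. Cxcl3 (chromosome 5, 90786103 to 90789600, plus strand) had 130.3, 181 and 158 CPM in DKO, against 4.62, 6.45 and 4.92 CPM in WT (4.87 ± 0.43, adjusted p = 1.2e-07). Cxcl2 (chromosome 5, 90903871 to 90905938, plus strand) had 126, 199 and 143 CPM in DKO, against 52.9, 32.1 and 21.3 CPM in WT (2.14 ± 0.36, adjusted p = 6.0e-04). Cxcl1 (chromosome 5, 90891241 to 90893115, plus strand) had 60.2, 82.3 and 46.3 CPM in DKO, against 4.60, 1.35 and 2.0 CPM in WT (4.58 ± 0.97, adjusted p = 0.0055). In all 3 genes the groups were apart, and no WT library passed 6.45 CPM for Cxcl1 or Cxcl3. The Cxcl1 call was lost without WT replicate 2 (adjusted p = 0.051).

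Of the 18 tested genes that mark LTi-like cells, 5 fell, and the list's median was -0.75. Kit, the stem cell factor receptor, had 509, 456 and 458 CPM in DKO, against 832, 1051 and 1072 CPM in WT (-1.06 ± 0.19, adjusted p = 0.0013), with every DKO library below every WT library. Cd74, H2-Ab1 and Ltb fell too. Among those that did not pass, Ccr6, Cxcr5 (139 CPM in DKO against 258 CPM in WT, adjusted p = 0.47), Nrp1 (179 CPM in DKO against 366 CPM in WT, adjusted p = 0.48) and Tnfsf11, encoding RANKL (34.8 CPM in DKO against 40.9 CPM in WT, adjusted p = 0.90), each averaged less in DKO. The groups overlapped for Tnfsf11 and not for Ccr6, Cxcr5 or Nrp1. With only the 6 CCR6 libraries in the fit, 12 members of the list fell, and 12 fell with voom.

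Lineage transcription factors were divided: of 34 tested, 5 rose and 7 fell, with a median of -0.09. Id2, which ILCs need to block the E proteins, had 2549, 2727 and 2509.9 CPM in DKO, against 4386, 4177 and 4600.2 CPM in WT (-0.76 ± 0.14, adjusted p = 0.0014). Batf, an AP-1 factor, averaged 36.8 ± 6.15 CPM in DKO and 85.8 ± 6.88 CPM in WT (-1.22 ± 0.22, adjusted p = 9.6e-04). Zbtb16, encoding PLZF, averaged 12.3 ± 2.31 CPM in DKO and 28.6 ± 2.65 CPM in WT (-1.22 ± 0.27, adjusted p = 0.0087). Ikzf3, encoding Aiolos, went the other way, with 196, 148 and 169 CPM in DKO, against 61.8, 88.8 and 90.2 CPM in WT (1.09 ± 0.17, adjusted p = 2.5e-04). The other factors that rose were Nfil3, Zbtb7b (0.80), Bcl11b (1.01) and Tox (0.46), and Ikzf2 (-0.52), Irf8 (-0.68) and Zfp683, which had no read in DKO and at most 0.228 CPM in WT, fell. Gata3 (406 CPM in DKO against 481 CPM in WT, adjusted p = 0.61), Tcf7 (654 CPM in DKO against 601 CPM in WT, adjusted p = 0.81) and Ahr (10.8 CPM in DKO against 11.9 CPM in WT, adjusted p = 0.94) did not pass. Calls lost when a library or setting changed were those of Zfp683 with voom, Zbtb16 without DKO replicate 2 (adjusted p = 0.069), Zbtb7b without DKO replicate 3 and WT replicates 1 and 3 (adjusted p = 0.060 to 0.071), Bcl11b without DKO replicate 3 and any WT replicate (adjusted p = 0.099 to 0.42) and with voom and the CCR6 libraries alone, Tox without DKO replicates 1 and 3 and any WT replicate (adjusted p = 0.10 to 0.19) and with no filter, Ikzf2 without DKO replicates 1 and 2 and WT replicates 2 and 3 (adjusted p = 0.066 to 0.23) and with no filter and the CCR6 libraries alone and Irf8 without DKO replicates 2 and 3 and WT replicates 1 and 2 (adjusted p = 0.056 to 0.31) and with the CCR6 libraries alone; Bcl11b then changed by 0.51 without DKO replicate 3.

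Of 33 tested cytokine receptor genes, 5 fell (15.2% called, against 3.97% of all tested genes), with a list median of -0.06. Il7r, whose ligand maintains ILCs, had 815, 786 and 784 CPM in DKO, against 1103, 1584 and 1519 CPM in WT (-0.82 ± 0.15, adjusted p = 0.0014). Il23r, the receptor chain that drives IL-17 and IL-22, averaged 161 ± 15.7 CPM in DKO and 318 ± 11.1 CPM in WT (-0.98 ± 0.19, adjusted p = 0.0026). Il18rap averaged 59.3 ± 3.80 CPM in DKO and 107 ± 12.0 CPM in WT (-0.85 ± 0.17, adjusted p = 0.0037). Kit and Il2rb (470.3 CPM in DKO against 734 CPM in WT, -0.64 ± 0.17) were the other 2. Il1r1 averaged 322 CPM in DKO against 300.5 CPM in WT and did not pass (adjusted p = 0.97). The Il2rb call was lost without any DKO replicate and WT replicates 1 and 2 (adjusted p = 0.077 to 0.25).

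**Figure D3:**
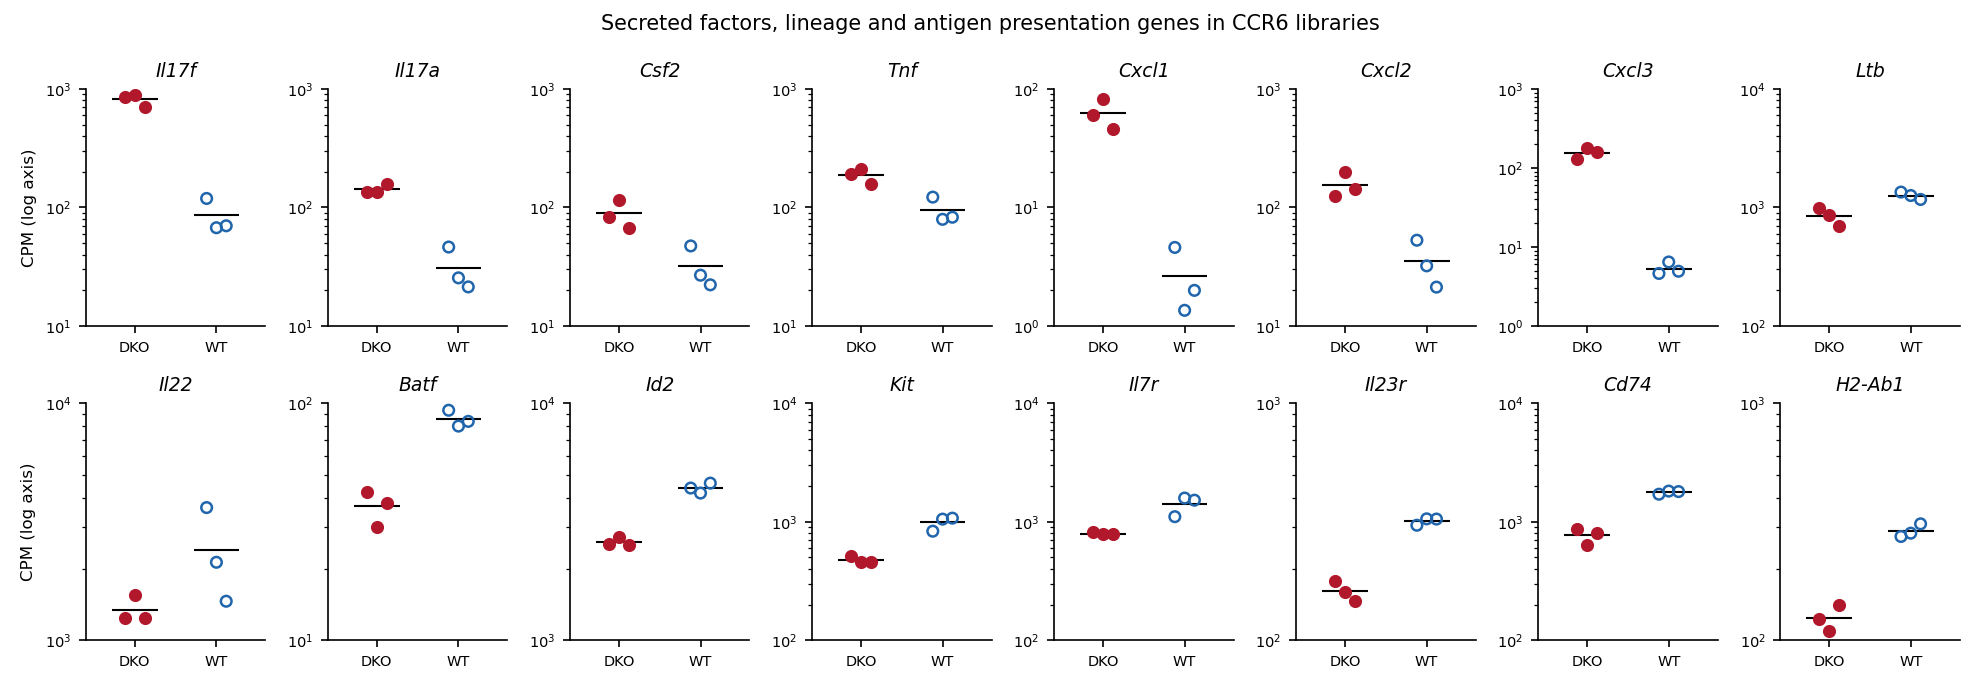
CPM on a log axis in each of the 3 DKO (left, filled) and 3 WT (right, open) CCR6 libraries for secreted factors and for lineage, receptor and antigen presentation genes; horizontal bars are group means. Il17f and the Cxcl genes lie higher in DKO, and Batf, Id2, Kit, Il7r, Cd74 and H2-Ab1 lower, while the Il22 groups overlap.

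Antigen presentation genes fell: 6 of 18 tested members, with a list median of -0.67. Cd74, the MHC class II invariant chain, had 862, 639.9 and 799 CPM in DKO, against 1707, 1813 and 1796 CPM in WT (-1.21 ± 0.21, adjusted p = 9.6e-04). H2-Ab1, a class II beta chain, had 123, 109 and 141 CPM in DKO, against 274, 283 and 309.7 CPM in WT (-1.22 ± 0.24, adjusted p = 0.0025). Neither gene's groups overlapped. H2-DMa, which loads peptide, averaged 23.6 CPM in DKO against 47.2 CPM in WT (-1.0 ± 0.20, adjusted p = 0.0030). H2-Oa, which restrains H2-DM, averaged 13.0 CPM in DKO against 47.5 CPM in WT (-1.87 ± 0.37, adjusted p = 0.0026), and Ctss, the protease that trims the invariant chain, 180.1 CPM in DKO against 307 CPM in WT (-0.77 ± 0.15, adjusted p = 0.0019). Icosl averaged 43.8 CPM in DKO against 76.0 CPM in WT, and its call was lost without DKO replicates 2 and 3 and WT replicate 3 (adjusted p = 0.056 to 0.11). B cells and myeloid cells express the class II genes too, and their summed markers, given above, were also lower in DKO libraries; their part in the fall was not tested.

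Several genes, at levels from under 1 CPM to 19.9 CPM in WT CCR6 libraries, were far more abundant in DKO cells. Mmp9, a secreted gelatinase (chromosome 2, 164940780 to 164955850, plus strand), had 1012, 829 and 721 CPM in DKO, against 7.48, 3.69 and 5.60 CPM in WT (7.26 ± 0.24, adjusted p = 1.3e-14). Spon2, a matrix protein that acts in innate recognition, had 1418, 1211 and 1088 CPM in DKO, against 19.9, 9.32 and 12.3 CPM in WT (6.49 ± 0.98, adjusted p = 2.6e-04). Angptl2, a secreted angiopoietin-like protein, had 252, 213 and 200.2 CPM in DKO, against 0.0380, 0.859 and 1.56 CPM in WT (8.03 ± 1.12, adjusted p = 8.6e-05). The groups lay far apart in each. Wnt3, a Wnt ligand, averaged 53.6 ± 5.46 CPM in DKO and 0.314 ± 0.274 CPM in WT (7.42 ± 0.91, adjusted p = 1.1e-05). Zfp618 averaged 76.2 ± 16.3 CPM in DKO and 0.568 ± 0.199 CPM in WT (7.08 ± 0.56, adjusted p = 2.7e-08), and Pik3r6, a regulatory subunit of PI3Kγ, 34.9 ± 6.70 CPM in DKO and 0.170 ± 0.152 CPM in WT (7.63 ± 0.98, adjusted p = 3.7e-05). Crybb2, a lens crystallin, averaged 325 ± 33.4 CPM in DKO and 0.0633 ± 0.0900 CPM in WT (12.15 ± 0.54, adjusted p = 8.5e-10), and Ak7, an adenylate kinase of cilia, 39.1 ± 7.84 CPM in DKO and 0.105 ± 0.0754 CPM in WT (8.62 ± 0.66, adjusted p = 1.7e-08).

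The same rule of size named Cdcp1 (12.9 CPM in DKO against 0.0471 CPM in WT), Plekhs1 (13.6 CPM in DKO against 0.0682 CPM in WT), Col9a3 (18.1 CPM in DKO against 0.195 CPM in WT), Reps2 (11.9 CPM in DKO against 0.141 CPM in WT) and Adamts2 (8.06 CPM in DKO against 0.116 CPM in WT), all with less than 1 CPM in WT. Single libraries decide some of these folds: Cdcp1 changed by 7.89, and by 12.08 without WT replicate 2, and Plekhs1 by 7.51, and by 12.15 without WT replicate 3. The Adamts2 call was lost without DKO replicate 1 and WT replicates 2 and 3 (adjusted p = 0.081 to 0.11). The uncharacterised gene B430306N03Rik, chosen after its values were seen, had 99.9, 68.1 and 66.9 CPM in DKO, against 0, 0.0118 and 0 CPM in WT. Its ratio was 17226 to 1 with 1 read in all of WT, and the 95% counting interval ran from 3091 to 680439. Treml2, its neighbour on chromosome 17 and a receptor of myeloid cells and lymphocytes, averaged 21 ± 3.55 CPM in DKO and 0.517 ± 0.238 CPM in WT (5.33 ± 0.67, adjusted p = 1.5e-05).

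In the list of matrix, protease and protease inhibitor genes, 5 of 30 tested members rose and 4 fell. Timp3, an inhibitor of metalloproteinases (chromosome 10, 86300372 to 86349506, plus strand), had 526, 602 and 534 CPM in DKO, against 6.08, 6.86 and 11.1 CPM in WT (6.11 ± 1.0, adjusted p = 6.0e-04). It lies within Syn3, whose reads on the other strand averaged 4.51 CPM in DKO against 0.0127 CPM in WT, so overlapping reads of the pair cannot be told apart. Abi3bp, a matrix protein, averaged 240.2 ± 29.7 CPM in DKO and 16.7 ± 5.06 CPM in WT (3.84 ± 0.21, adjusted p = 6.6e-11), and Lgals1, encoding galectin 1, 196 ± 38.0 CPM in DKO and 26.9 ± 14.9 CPM in WT (2.87 ± 0.28, adjusted p = 6.3e-07). Serpine2, a serine protease inhibitor, fell: it had 48.5, 29.3 and 31.8 CPM in DKO, against 309.8, 173 and 121 CPM in WT, without overlap (-2.46 ± 0.43, adjusted p = 9.6e-04). Mmp9 and Adam12 (1.19) rose too, and Serpinb1a (-0.84), Serpinb6b (-1.10) and Mmp25 (-1.70) fell.

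Other genes all but disappeared from DKO cells. Fam189a1 had 0, 0 and 0 CPM in DKO, against 12.4, 21 and 15.7 CPM in WT, and with 3 counts taken as the floor over the DKO group it was at least 905-fold lower. Fez1, an adaptor of axonal transport, had 0, 0 and 0 CPM in DKO, against 9.10, 6.23 and 8.06 CPM in WT, at least 405-fold lower. Ankrd35 had 1 read in all of DKO and averaged 7.74 CPM in WT, a WT to DKO ratio of 1265 with a 95% counting interval of 227 to 49982. Nos2, the inducible nitric oxide synthase, had 0.214, 0 and 0.183 CPM in DKO, against 24.4, 36.7 and 22.5 CPM in WT (-7.70 ± 1.48, adjusted p = 0.0022). Cacna1g, a T-type calcium channel, had 0.115, 0.540 and 0.641 CPM in DKO, against 37.2, 50.4 and 46.5 CPM in WT (-6.70 ± 1.07, adjusted p = 3.4e-04). Each of these 5 genes was read in every WT library, which follows from naming by size only genes whose groups do not overlap. Adm, the vasodilator adrenomedullin, averaged 0.688 ± 0.169 CPM in DKO and 27.9 ± 5.06 CPM in WT (-5.34 ± 1.0, adjusted p = 0.0017), and Kcnc1, a potassium channel, 0.438 ± 0.387 CPM in DKO and 19.6 ± 1.36 CPM in WT (-5.46 ± 1.03, adjusted p = 0.0019). Deup1 (-6.12), Eps8l3 (-5.62) and Cd101 (-3.89), a surface glycoprotein, fell in the same way.

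Enzymes of lipid mediators were among these genes. Hpgds, the prostaglandin D2 synthase of blood cells and an ILC2 marker, had 2.40, 0.288 and 0.344 CPM in DKO, against 21.7, 17.2 and 16.8 CPM in WT (-4.18 ± 0.81, adjusted p = 0.0024). Ephx2, which hydrolyses fatty acid epoxides, averaged 0.0914 ± 0.0733 CPM in DKO and 6.26 ± 2.65 CPM in WT (-6.05 ± 1.38, adjusted p = 0.0099). Ephx1, the microsomal epoxide hydrolase, moved the other way, with 56.1, 48.5 and 40.7 CPM in DKO, against 3.72, 4.83 and 4.75 CPM in WT (3.45 ± 0.40, adjusted p = 5.1e-06). Tgm3, Tmem150c, Aqp9 and Grb10 (the last chosen after its values were seen) fell by 4.58, 5.57, 3.74 and 3.73. Calls lost without single libraries were those of Ephx2 without DKO replicates 2 and 3 (adjusted p = 0.063 to 0.074), Tgm3 without any DKO replicate (adjusted p = 0.060 to 0.082), Tmem150c without any DKO replicate and WT replicates 2 and 3 (adjusted p = 0.051 to 0.10), Aqp9 without DKO replicates 2 and 3 and WT replicate 1 (adjusted p = 0.058 to 0.11) and with no filter and Grb10 without DKO replicates 2 and 3 and WT replicates 1 and 3 (adjusted p = 0.055 to 0.12) and with no filter.

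Among abundant genes, the largest gain in CPM was in Lat, the adaptor of antigen receptor signalling (chromosome 7, 126363824 to 126369570, minus strand). It had 2203, 2159.6 and 2091 CPM in DKO, against 289.8, 209.8 and 256 CPM in WT, with no overlap (3.10 ± 0.17, adjusted p = 8.3e-11). Spns1, a lysosomal lipid transporter that lies 489 bases from Lat and was chosen after its values were seen, averaged 251 ± 12.6 CPM in DKO and 65.6 ± 15.2 CPM in WT (1.93 ± 0.26, adjusted p = 3.4e-05). Furin, the proprotein convertase, had 1571, 1565 and 1317 CPM in DKO, against 225, 258 and 196 CPM in WT (2.71 ± 0.19, adjusted p = 4.3e-09). Acat1, the mitochondrial thiolase of ketone and isoleucine metabolism, had 1371, 1214 and 1267 CPM in DKO, against 268, 299 and 283 CPM in WT (2.18 ± 0.12, adjusted p = 6.6e-11). In Furin and Acat1 the lowest DKO library was far above the highest WT library. Ecm1 rose by 2.0 ± 0.26 (adjusted p = 2.0e-05), Btg1 by 0.89 ± 0.16 (adjusted p = 0.0013) and Klf6 by 0.87 ± 0.17 (adjusted p = 0.0026). Laptm5 rose by 0.57 ± 0.15 (adjusted p = 0.028), a call lost without DKO replicates 1 and 2 and any WT replicate (adjusted p = 0.070 to 0.24).

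The largest losses in CPM were in Cd82, a tetraspanin, and Id2. Cd82 had 2563, 1975 and 1824 CPM in DKO, against 4599, 4494 and 3954 CPM in WT (-1.04 ± 0.17, adjusted p = 6.0e-04). Ncoa7, a nuclear receptor coactivator that also acts in endolysosomes, had 405, 297 and 304 CPM in DKO, against 1527, 1875 and 1773 CPM in WT (-2.36 ± 0.18, adjusted p = 1.4e-08). The groups of both genes stood apart. Rgs1, a brake on chemokine receptor signalling, averaged 965 ± 29.8 CPM in DKO and 1733 ± 76.2 CPM in WT (-0.85 ± 0.19, adjusted p = 0.0083), and Sla, an adaptor that lowers antigen receptor levels, 849 ± 145 CPM in DKO and 1545 ± 39.5 CPM in WT (-0.86 ± 0.16, adjusted p = 0.0017). Shisa5 fell by 0.59 ± 0.16 (adjusted p = 0.040), a call lost without DKO replicates 2 and 3 and any WT replicate (adjusted p = 0.076 to 0.22).

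In glycolysis, 5 of 30 tested genes rose and 1 fell, with a median of 0.34. Pfkp, the platelet phosphofructokinase, had 968, 885 and 942 CPM in DKO, against 287, 284 and 281 CPM in WT (1.71 ± 0.14, adjusted p = 4.6e-08), and Pfkl, the liver form, averaged 568 ± 32.0 CPM in DKO and 309.8 ± 7.15 CPM in WT (0.87 ± 0.16, adjusted p = 0.0018). Slc16a3, the lactate exporter MCT4, had 28.5, 24.4 and 21.6 CPM in DKO, against 2.55, 2.75 and 3.44 CPM in WT (3.09 ± 0.27, adjusted p = 1.2e-07). Eno1 rose by 0.84 ± 0.16 (adjusted p = 0.0022) and Pkm by 0.68 ± 0.17 (adjusted p = 0.019). The glucose transporter gene Slc2a3 fell, with 21.9, 26.2 and 28.1 CPM in DKO, against 56.4, 56.2 and 56.7 CPM in WT (-1.15 ± 0.22, adjusted p = 0.0021). The Pkm call was lost without DKO replicate 1 and WT replicates 2 and 3 (adjusted p = 0.10 to 0.18).

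In lipid metabolism, Lpl, the lipase that frees fatty acids from lipoproteins, had 49.3, 39.7 and 27.8 CPM in DKO, against 1.10, 1.07 and 0.435 CPM in WT (5.49 ± 0.47, adjusted p = 7.3e-08). Plin2, which coats lipid droplets, had 307, 222 and 179 CPM in DKO, against 76.2, 77.8 and 85.2 CPM in WT (1.56 ± 0.23, adjusted p = 1.4e-04). Both were higher in every DKO library. Ucp2 rose by 0.77 ± 0.15 (adjusted p = 0.0034) and Elovl6, a fatty acid elongase, fell by 0.94 ± 0.18 (adjusted p = 0.0018). These were the 4 called members (10.8%) of 37 tested genes of fatty acid uptake, storage and oxidation, whose median was 0.02. A fit of the 6 CCR6 libraries alone called 3 higher and 6 lower. Of 23 tested cholesterol genes 4 fell (17.4% called), with a median of -0.16. Of all tested genes, 3.97% were called. Cyp51, a demethylase of sterol synthesis, had 18.7, 23.5 and 19.3 CPM in DKO, against 75.3, 72.8 and 76.1 CPM in WT (-1.86 ± 0.34, adjusted p = 0.0012). Sqle, squalene epoxidase, had 20.6, 12.0 and 14.5 CPM in DKO, against 43.3, 40.4 and 34.0 CPM in WT (-1.32 ± 0.25, adjusted p = 0.0021). Srebf2, the activator of the pathway, averaged 113 CPM in DKO against 163 CPM in WT, and its call was lost without any DKO replicate and any WT replicate (adjusted p = 0.082 to 0.23) and with no filter. With only the 6 CCR6 libraries in the fit, 8 cholesterol genes fell and 1 rose.

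Of 20 tested genes of arginine, polyamine and one-carbon metabolism, 3 rose and 2 fell. Ass1, which makes argininosuccinate, had 334, 325 and 309 CPM in DKO, against 2.74, 2.75 and 3.70 CPM in WT (6.71 ± 0.57, adjusted p = 7.3e-08). Shmt1, a cytosolic serine hydroxymethyltransferase, had 29.3, 25.8 and 20.9 CPM in DKO, against 3.21, 1.19 and 2.10 CPM in WT (3.55 ± 0.62, adjusted p = 8.3e-04). Mthfd2, a mitochondrial folate enzyme, averaged 71.7 ± 6.07 CPM in DKO and 29.2 ± 3.51 CPM in WT (1.29 ± 0.26, adjusted p = 0.0034). Nos2 and Sat1 (387 CPM in DKO against 762 CPM in WT, -0.98 ± 0.23), a polyamine acetyltransferase, fell. Of 26 tested genes of glutathione and redox metabolism, 1 rose and 4 fell. Gpx1 had 719.9, 683 and 527 CPM in DKO, against 1899, 1555 and 1433 CPM in WT (-1.34 ± 0.15, adjusted p = 4.5e-06). Gstm5 averaged 14.8 ± 2.84 CPM in DKO and 73.1 ± 11.1 CPM in WT (-2.31 ± 0.19, adjusted p = 6.3e-08) and Gstm1 23.8 ± 3.94 CPM in DKO and 54.9 ± 4.91 CPM in WT (-1.20 ± 0.22, adjusted p = 0.0013). Nfe2l2, encoding NRF2, which drives many genes of this list, fell by 0.50 ± 0.12 (adjusted p = 0.016), and Gstt2 rose by 0.62 ± 0.16 (adjusted p = 0.023). Calls lost without single libraries were those of Sat1 without DKO replicates 1 and 2 and WT replicate 3 (adjusted p = 0.058 to 0.085), Nfe2l2 without DKO replicates 1 and 3 and WT replicate 2 (adjusted p = 0.056 to 0.13) and with no filter and Gstt2 without any DKO replicate and WT replicates 2 and 3 (adjusted p = 0.054 to 0.14) and with no filter.

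In mitochondrial and housekeeping lists, the shares called were 3.03% for oxidative phosphorylation, 5% for heme and 3.45% for ribosomal protein genes, near the 3.97% of all tested genes. In oxidative phosphorylation, Ndufa1 was the called member among 33 tested (median 0.13), with 168, 149.8 and 137 CPM in DKO, against 94.4, 83.9 and 72.3 CPM in WT (0.86 ± 0.14, adjusted p = 3.9e-04). Of 24 tested mitophagy and mitochondrial dynamics genes, edgeR called 0; 1 passed at an unadjusted p under 0.05, and 1 was called lower by DESeq2 and 1 by limma voom. Heme synthesis and breakdown had 1 called member of 20, Blvra, biliverdin reductase A, at 66.6 CPM in DKO against 46.2 CPM in WT (0.53 ± 0.14, adjusted p = 0.034). Among 29 ribosomal protein genes (median 0.22), Rplp0 rose by 0.54 ± 0.14 (adjusted p = 0.025). Called shares do not show small shifts of a whole list. The log2 change was above 0 for 28 of 29 ribosomal protein, 25 of 33 oxidative phosphorylation, 8 of 20 heme and 7 of 24 mitophagy genes. Over all 21286 genes it was above 0 for 10193. For ribosomal protein genes, voom called 6 higher and the CCR6 libraries alone 1, with 0 lower in both. The Blvra call was lost without DKO replicates 1 and 2 and any WT replicate (adjusted p = 0.052 to 0.31) and with no filter and the CCR6 libraries alone, and the Rplp0 call without DKO replicates 1 and 2 and WT replicates 2 and 3 (adjusted p = 0.060 to 0.20).

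Integrins and trafficking receptors moved in both directions, with 6 of 32 tested higher and 3 lower. The list's median was -0.42, and the log2 change was below 0 for 19 of the 32. The integrin pair that forms LFA-1 rose: Itgb2 had 466, 329.7 and 344 CPM in DKO, against 182, 162 and 174 CPM in WT (1.14 ± 0.22, adjusted p = 0.0021), and Itgal had 555, 501 and 503 CPM in DKO, against 252, 290.1 and 285 CPM in WT (0.91 ± 0.18, adjusted p = 0.0030). The groups of both genes were apart. Cd44, the hyaluronan receptor, averaged 572 ± 36.9 CPM in DKO and 345 ± 29.5 CPM in WT (0.73 ± 0.10, adjusted p = 6.3e-05), S1pr4, a sphingosine phosphate receptor, 92.9 ± 4.74 CPM in DKO and 49.0 ± 1.90 CPM in WT (0.92 ± 0.18, adjusted p = 0.0028). Itgb7, the beta chain of the gut-homing integrin, rose by 0.46 ± 0.12 (adjusted p = 0.026), and Klf2, a factor that drives exit from tissue, by 1.34 ± 0.34 (adjusted p = 0.025). The collagen-binding integrin genes Itga1 (0.239 CPM in DKO against 1.85 CPM in WT) and Itga2 (1.11 CPM in DKO against 3.30 CPM in WT) fell, as did Cxcr4 (3.83 CPM in DKO against 13.1 CPM in WT). Calls lost when a library or setting changed were those of Itgb7 without DKO replicates 1 and 2 and WT replicates 2 and 3 (adjusted p = 0.076 to 0.20) and with no filter, Klf2 without any DKO replicate and WT replicates 2 and 3 (adjusted p = 0.056 to 0.17), Itga1 with voom, Itga2 without any DKO replicate and any WT replicate (adjusted p = 0.054 to 0.16) and with no filter and voom and Cxcr4 without any DKO replicate and WT replicates 1 and 2 (adjusted p = 0.093 to 0.14). The CCR6 libraries fitted alone gave 6 members higher and 8 lower.

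Receptors for metabolites, neuropeptides and vitamins counted 3 of 25 higher and 3 lower, with a median of -0.44. Ramp1, the partner chain of the CGRP receptor, had 592, 526 and 453 CPM in DKO, against 261, 207 and 209 CPM in WT (1.21 ± 0.23, adjusted p = 0.0018). Rarg, a retinoic acid receptor, had 33.3, 31.4 and 33.9 CPM in DKO, against 8.02, 8.23 and 7.88 CPM in WT (2.03 ± 0.39, adjusted p = 0.0022). Every DKO library exceeded every WT library in both. Tiparp, an AHR target that restrains AHR, rose by 1.19 ± 0.22 (adjusted p = 0.0018), while Ahrr, another AHR target and repressor, fell by 2.13 ± 0.58 (adjusted p = 0.039). Ffar2, a short-chain fatty acid receptor, averaged 192 ± 26.5 CPM in DKO and 438 ± 31.8 CPM in WT (-1.19 ± 0.14, adjusted p = 1.0e-05), and Nr3c1, the glucocorticoid receptor, 67.4 ± 6.15 CPM in DKO and 106 ± 6.01 CPM in WT (-0.65 ± 0.17, adjusted p = 0.034). The Nr3c1 call was lost without any DKO replicate and any WT replicate (adjusted p = 0.071 to 0.18), and the Ahrr call without DKO replicates 2 and 3 and WT replicates 1 and 2 (adjusted p = 0.063 to 0.26) and with voom and the CCR6 libraries alone. A fit of the CCR6 libraries alone called 3 members higher and 7 lower.

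Checkpoint and costimulatory genes were lower more often than higher, 6 against 2 of 22 tested, with a median of -0.48. Ctla4 had 1.79, 3.03 and 4.35 CPM in DKO, against 46.6, 14.5 and 15.3 CPM in WT (-3.06 ± 0.39, adjusted p = 1.8e-05). Lag3 had 5.51, 5.44 and 4.63 CPM in DKO, against 17.3, 16.1 and 15.2 CPM in WT (-1.64 ± 0.19, adjusted p = 5.1e-06). Cd96, an inhibitory receptor of the nectin family, had 218, 180.4 and 184 CPM in DKO, against 380.2, 457 and 405 CPM in WT (-1.09 ± 0.17, adjusted p = 2.3e-04). Groups were apart for all 3, with Ctla4 and Lag3 at low levels. Klrg1 (-2.23), Pdcd1lg2 (-1.75) and Cd160 (-0.60) fell too. Cd27, a TNF receptor family member, rose, with 1.83, 5.74 and 3.94 CPM in DKO, against 0.133, 0.341 and 0.716 CPM in WT (3.23 ± 0.55, adjusted p = 7.3e-04), as did Vsir (0.59). Calls lost when a library or setting changed were those of Pdcd1lg2 without DKO replicates 2 and 3 and WT replicate 1 (adjusted p = 0.059 to 0.094), Cd160 without DKO replicates 1 and 2 and WT replicates 1 and 2 (adjusted p = 0.058 to 0.20) and Vsir without DKO replicate 3 and WT replicates 1 and 3 (adjusted p = 0.055 to 0.082) and with no filter.

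Type 1 and cytotoxic genes, many of them at low levels in CCR6 cells, fell in 13 of 36 tested cases and rose in 3, with a median of -0.69. Markers of other innate lymphoid cells, which share genes with this list, moved too. Of 16 tested NK cell and ILC1 markers 6 fell (Ncr1, Klrb1c, Gzma, Ccl5, Itga1 and Itga2), with a median of -1.35, while their summed level overlapped, at 150.1 to 164 CPM in DKO against 144 to 158 CPM in WT. Of 12 tested markers of NKp46 ILC3 4 fell (Ncr1, Klrb1b, Il2rb and Ctsw), and these markers summed to 1218 to 1309 CPM in DKO against 1582 to 1883 CPM in WT. Of 16 tested ILC2 markers Klrg1 and Hpgds fell, and the sum was 663 to 762 CPM in DKO against 869.6 to 889.6 CPM in WT. The part of these cells in the results was not tested. Klrb1c, encoding NK1.1, had 3.87, 2.7 and 4.19 CPM in DKO, against 18.1, 21.3 and 14.4 CPM in WT (-2.32 ± 0.18, adjusted p = 2.2e-08). Ncr1, encoding NKp46, had 2.55, 2.58 and 2.63 CPM in DKO, against 12.1, 11.5 and 5.95 CPM in WT (-1.93 ± 0.30, adjusted p = 2.8e-04). Fcer1g, the signalling chain that NKp46 uses, had 634, 629.7 and 494 CPM in DKO, against 1128, 1002 and 857 CPM in WT (-0.76 ± 0.13, adjusted p = 5.7e-04). All 3 genes were lower in each DKO library. Klrb1b averaged 415 ± 26.9 CPM in DKO and 645 ± 41.6 CPM in WT (-0.63 ± 0.09, adjusted p = 1.3e-04). Ctsw (-0.67), Tyrobp (-1.47), Ccl5 (-1.31), Itga1, Itga2, Il2rb, Klrg1, Fasl and Gzma fell as well. Fasl had 2 reads in all of DKO, a WT to DKO ratio of 90.1 with a 95% counting interval of 24.7 to 748, and Gzma had no read in DKO and at most 0.424 CPM in WT. Klrc1, the NKG2A chain, rose by 2.84 ± 0.52 (adjusted p = 0.0014), and Klrc2 by 2.42 ± 0.53 (adjusted p = 0.0077) at 0.613 CPM in DKO against 0.107 CPM in WT. The voom test ended the calls of Ncr1 and Fasl, and the Klrc2 call was lost without WT replicate 2 (adjusted p = 0.072) and with voom and the CCR6 libraries alone. Calls were also lost for Ctsw without any DKO replicate and WT replicate 1 (adjusted p = 0.050 to 0.21) and with voom and the CCR6 libraries alone, Tyrobp without DKO replicates 1 and 2 and WT replicate 1 (adjusted p = 0.055 to 0.088), Ccl5 without DKO replicates 2 and 3 and WT replicates 1 and 3 (adjusted p = 0.050 to 0.15) and with no filter, voom and the CCR6 libraries alone and Gzma without any DKO replicate and WT replicates 2 and 3 (adjusted p = 0.056 to 0.22) and with no filter, voom and WT ILC1 replicate 2 left out; the Ctsw change was -0.42 without WT replicate 1 and that of Ccl5 -1.98 without DKO replicate 1. With only the 6 CCR6 libraries in the fit, 10 members fell and 2 rose, and with voom 6 fell and 2 rose.

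NF-kB subunits and targets fell in 5 of 26 tested cases, and 1 rose (23.1% called, against 3.97% of all tested genes). The list's median was -0.14. Traf1, an adaptor of TNF receptors, had 179.9, 144 and 142 CPM in DKO, against 301, 311 and 274 CPM in WT (-0.93 ± 0.13, adjusted p = 5.4e-05). Birc3, encoding cIAP2, had 102, 90.3 and 94.0 CPM in DKO, against 184, 216 and 201 CPM in WT (-1.07 ± 0.15, adjusted p = 8.7e-05). Icam1 averaged 63.6 ± 12.4 CPM in DKO and 167 ± 18.7 CPM in WT (-1.39 ± 0.24, adjusted p = 8.4e-04), Nfkbie 71.5 ± 16.7 CPM in DKO and 139 ± 7.88 CPM in WT (-0.96 ± 0.16, adjusted p = 3.9e-04), and Nfkb2, the p100 precursor of the lymphotoxin pathway, 175 ± 26.3 CPM in DKO and 293 ± 7.94 CPM in WT (-0.74 ± 0.17, adjusted p = 0.013). Nfkbid, encoding the nuclear inhibitor IκBNS, rose by 0.71 ± 0.19 (adjusted p = 0.038). The Nfkb2 call was lost without DKO replicates 2 and 3 and WT replicate 2 (adjusted p = 0.054 to 0.10), and the Nfkbid call without any DKO replicate and any WT replicate (adjusted p = 0.052 to 0.20).

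Survival genes were also among those that fell. Of 25 tested BCL2 family and death receptor genes, 5 fell and 1 rose, with a median of -0.09. Bcl2 had 276, 266 and 294 CPM in DKO, against 509, 509 and 521 CPM in WT, a tight separation (-0.88 ± 0.13, adjusted p = 1.9e-04). Bcl2a1d averaged 2.38 ± 1.08 CPM in DKO and 11.6 ± 2.27 CPM in WT (-2.28 ± 0.29, adjusted p = 1.6e-05), Bcl2a1b 1.26 ± 0.360 CPM in DKO and 3.74 ± 0.358 CPM in WT (-1.58 ± 0.29, adjusted p = 0.0013) and Bcl2a1a 0.459 ± 0.132 CPM in DKO and 2.51 ± 1.28 CPM in WT (-2.44 ± 0.43, adjusted p = 9.7e-04). The Bcl2a1 copies are nearly identical, so reads may be split among them and their separate values are uncertain. Fasl was the remaining member that fell. The proapoptotic Bcl2l11, encoding BIM, rose, averaging 59.2 ± 3.76 CPM in DKO and 36.1 ± 4.61 CPM in WT (0.71 ± 0.15, adjusted p = 0.0064), a call lost without WT replicate 1 (adjusted p = 0.062) and with no filter.

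Of 29 tested proliferation genes 4 rose (13.8% called, against 3.97% of all tested genes), and the list's median was 0.63. Ccnd2, encoding the G1 cyclin D2, had 611, 606 and 601 CPM in DKO, against 235, 219 and 234 CPM in WT (1.40 ± 0.11, adjusted p = 3.9e-08). Cdk6, its kinase partner, had 127, 124 and 113 CPM in DKO, against 47.6, 47.4 and 49.9 CPM in WT (1.33 ± 0.22, adjusted p = 4.8e-04). Both genes' groups were apart. Ccnd3 averaged 208 ± 11.3 CPM in DKO and 111 ± 26.1 CPM in WT (0.90 ± 0.23, adjusted p = 0.027) and Mcm3, a subunit of the replicative helicase and the neighbour of Il17f, 123 ± 36.9 CPM in DKO and 48.8 ± 4.04 CPM in WT (1.33 ± 0.30, adjusted p = 0.0095). The Ccnd3 call was lost without any DKO replicate and WT replicates 2 and 3 (adjusted p = 0.059 to 0.18) and with no filter, and the Mcm3 call without DKO replicate 1 and WT replicates 2 and 3 (adjusted p = 0.054 to 0.087); the CCR6 libraries fitted alone gave 9 members higher.

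Among 32 tested interferon-stimulated genes, 2 rose and 2 fell. Bst2, encoding tetherin, had 154, 129 and 95.4 CPM in DKO, against 439, 430.5 and 338 CPM in WT (-1.68 ± 0.20, adjusted p = 9.6e-06). Oasl2 averaged 88.9 ± 12.6 CPM in DKO and 28.9 ± 2.87 CPM in WT (1.62 ± 0.20, adjusted p = 1.1e-05). Igtp (0.69) rose and Ifih1 (-1.0) fell. In TGF-beta signalling, Skil, a SMAD corepressor, fell by 0.92 ± 0.20 (adjusted p = 0.0074) and Smad3 by 0.63 ± 0.15 (adjusted p = 0.013), the 2 called of 25 tested. Among 27 immediate early and dissociation genes, Klf6, Fosb (0.89) and Nr4a2 (1.16) rose and Dnajb1, a heat shock cochaperone, fell, with 123, 166 and 148 CPM in DKO, against 359, 272 and 229 CPM in WT (-0.98 ± 0.16, adjusted p = 3.5e-04). These genes respond to cell isolation, and the part of isolation in the results was not tested. The shares called were 12.5%, 8% and 14.8% for the interferon, TGF-beta and immediate early lists, against 3.97% of all tested genes. With a filter of 5 CPM in 3 libraries, 958 of 11282 genes were called, a share near that of the TGF-beta list. Calls lost without single libraries were those of Igtp without DKO replicate 1 and WT replicate 1 (adjusted p = 0.057 to 0.063), Ifih1 without DKO replicates 2 and 3 and any WT replicate (adjusted p = 0.063 to 0.22), Skil without WT replicate 2 (adjusted p = 0.053), Smad3 without DKO replicate 1 and WT replicates 2 and 3 (adjusted p = 0.052 to 0.076) and with no filter, Fosb without WT replicate 3 (adjusted p = 0.074) and Nr4a2 without DKO replicate 2 and any WT replicate (adjusted p = 0.072 to 0.17).

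**Figure D4:**
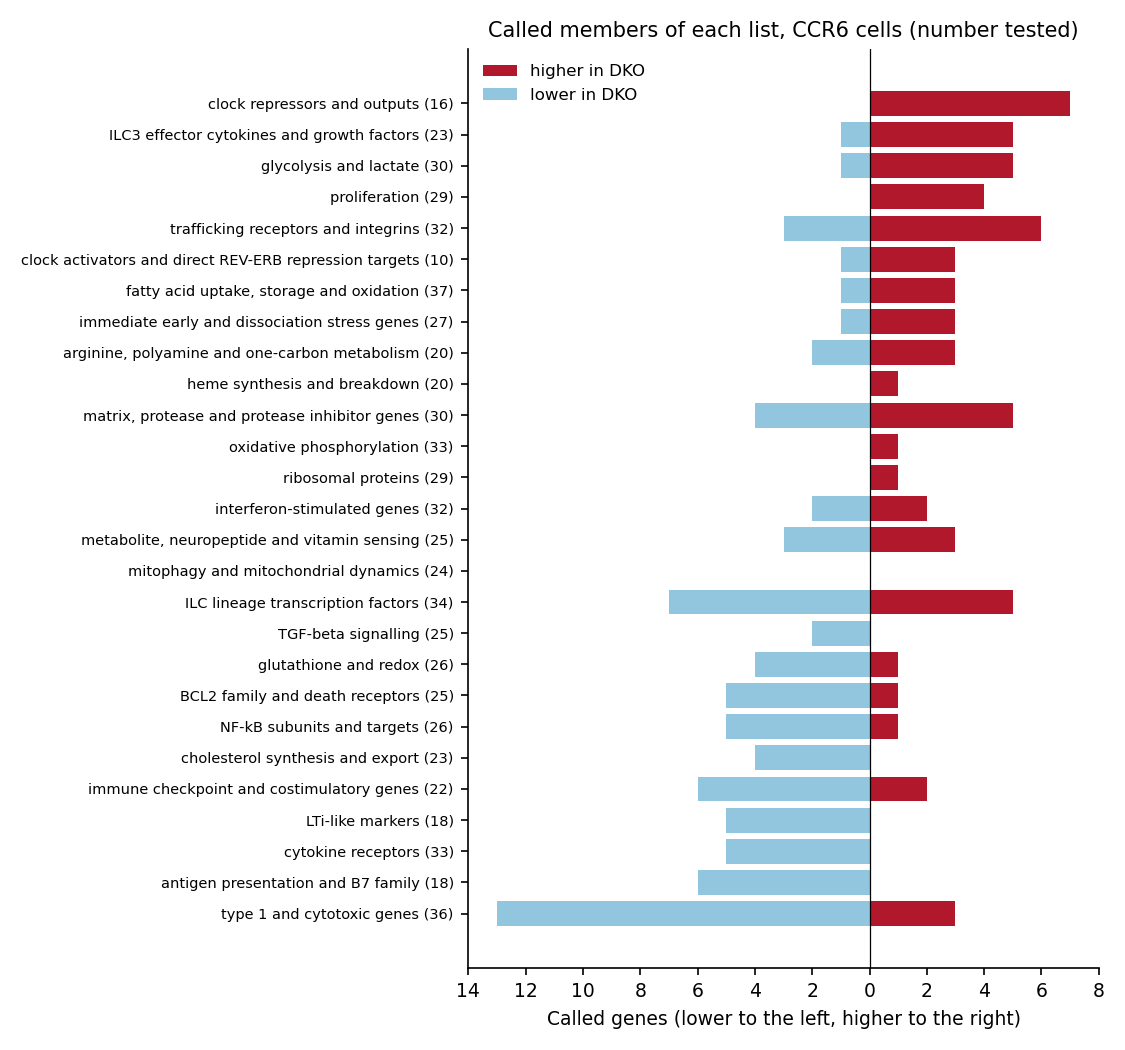
Counts of called genes in each gene list in CCR6 cells, DKO over WT, with members that rose to the right in the darker colour and members that fell to the left in the lighter colour; the number tested stands beside each list. The clock repressor list has 7 risen of 16, and the type 1 list 13 fallen of 36.

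The same contrast in the other populations gave 885 called genes in NKp46 cells (4.16%; 1.99% higher and 2.17% lower), 602 in DN cells (2.83%; 1.49% higher and 1.34% lower) and 225 in ILC1 (1.06%; 0.78% higher and 0.277% lower). The comparisons use separate libraries but 1 shared estimate of spread. Of the 411 genes that rose in CCR6 cells, 168 were also called higher in NKp46 cells and 205 in DN cells, and 59 in all 4 populations. Of the 435 that fell, 164 were also called lower in NKp46 cells and 150 in DN cells, and 21 in all 4. There were 154 genes called higher and 206 called lower in CCR6 cells alone, but a difference of effects from NKp46 or DN cells was itself called for only 9 and 16 of these.

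The genotype effect differed between CCR6 and NKp46 cells for 90 genes (0.423%), 43 with a larger (0.202%) and 47 with a smaller (0.221%) value in CCR6. It differed between CCR6 and DN cells for 27 genes (0.127%), 19 with a larger (0.0893%) and 8 with a smaller (0.0376%) value in CCR6. Of these, 61 and 18 were also called in the CCR6 contrast, and 12 genes were called in both differences. With 1 of the 12 libraries left out, 55 (without DKO CCR6 replicate 2) to 94 genes differed from NKp46 cells and 7 (without DKO DN replicate 3) to 25 from DN cells. Cd7, a receptor of early lymphoid cells, had 69.2, 56.7 and 69.3 CPM in DKO, against 404, 551 and 398 CPM in WT, a change of -2.79 ± 0.17. In NKp46 cells it averaged 322 CPM in DKO against 182 CPM in WT, a rise of 0.82 ± 0.16, and in DN cells 198 CPM in DKO against 236 CPM in WT (-0.25 ± 0.16). The CCR6 effect was below the NKp46 effect by 3.62 ± 0.23 (adjusted p = 7.9e-09) and below the DN effect by 2.54 ± 0.23 (adjusted p = 4.9e-06). Add3, an adducin of the membrane skeleton, had 161, 154 and 150.5 CPM in DKO, against 31.0, 40.6 and 46.3 CPM in WT, a change of 1.98 ± 0.20, against -0.89 ± 0.19 in NKp46 and 0.10 ± 0.19 in DN cells; the differences were 2.87 ± 0.27 (adjusted p = 7.4e-06) and 1.88 ± 0.27 (adjusted p = 0.0033). Ltb4r1, the leukotriene B4 receptor, rose in CCR6 cells by 1.39 ± 0.19 and fell in NKp46 cells by 0.77 ± 0.18, a difference of 2.17 ± 0.26 (adjusted p = 2.1e-04); the difference from DN was 1.49 ± 0.26 (adjusted p = 0.019).

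Cytokine genes were among those whose direction turned. Tnf rose in CCR6 cells by 0.98 ± 0.18 and fell in NKp46 cells by 0.67 ± 0.18, with a difference of 1.64 ± 0.25 (adjusted p = 0.0014). Csf2 changed by 1.47 ± 0.29 in CCR6 and -0.83 ± 0.28 in NKp46 cells, a difference of 2.30 ± 0.40 (adjusted p = 0.0065). Ltb fell in CCR6 cells and rose in NKp46 cells by 0.45 ± 0.12, a difference of -1.01 ± 0.17 (adjusted p = 0.0052). Ccl5, a type 1 chemokine, averaged 2.28 CPM in DKO against 5.71 CPM in WT in CCR6 cells and 146 CPM in DKO against 34.5 CPM in WT in NKp46 cells, effects of -1.31 ± 0.32 and 2.08 ± 0.31 that differed by -3.39 ± 0.44 (adjusted p = 4.3e-04). Tlr12, an endosomal receptor, fell by 2.55 ± 0.41 in CCR6 cells and rose by 1.47 ± 0.40 in NKp46 cells, a difference of -4.02 ± 0.57 (adjusted p = 9.2e-04). The invariant chain Cd74 did not share its fall with NKp46 cells, where the effect was 0.33 ± 0.21; the difference was -1.53 ± 0.30 (adjusted p = 0.017). The CCR6 calls of Ltb and Ccl5 depended on single libraries, as given above, the Ccl5 difference was lost with voom (adjusted p = 0.099), and the Cd74 difference was lost without DKO CCR6 replicate 2 and DKO NKp46 replicates 1 and 3 and WT NKp46 replicates 1 and 2 (adjusted p = 0.055 to 0.090).

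Further genes with a larger effect in CCR6 than in NKp46 cells were Rbm24 (2.35 ± 0.39 against -0.60 ± 0.38), Tacc2 (2.47 ± 0.26 against 0.09 ± 0.24), Bmp4, a morphogen (2.68 ± 0.58 against -1.24 ± 0.55), Ak7 (8.62 ± 0.66 against 5.01 ± 0.54) and Ephx1 (3.45 ± 0.40 against 1.01 ± 0.36). Those with a lower value in CCR6 included Hpgds (-4.18 ± 0.81 against 1.30 ± 0.75), Pard3, a polarity protein (-3.60 ± 0.74 against 1.18 ± 0.69), and Lypd6b (-2.99 ± 0.51 against 0.31 ± 0.48). Against DN cells, Socs2, a suppressor of cytokine signalling, rose in CCR6 by 1.31 ± 0.17 and fell in DN by 0.72 ± 0.17, a difference of 2.03 ± 0.24 (adjusted p = 2.2e-04). Hes1, a Notch target (1.79 ± 0.29 against -0.57 ± 0.28), Cd27 (3.23 ± 0.55 against -0.68 ± 0.48), Art2b (3.59 ± 0.45 against -0.00 ± 0.40), Bcl11b (1.01 ± 0.28 against -0.98 ± 0.28) and Mmp9 (7.26 ± 0.24 against 5.62 ± 0.22) had higher values in CCR6. Tm9sf2 (-1.44 ± 0.17 against 0.02 ± 0.16), St3gal6, a sialyltransferase (-3.19 ± 0.20 against -1.84 ± 0.19), and Klrb1b (-0.63 ± 0.09 against 0.06 ± 0.09) had lower ones. Single libraries decided many of these differences. Of 16 genes named for the difference from NKp46, 8 lost it when 1 of the 12 libraries was left out (Ak7, Ankrd35, Bmp4, Ephx1, Gzma, Hpgds, Lypd6b and Pard3; adjusted p = 0.051 to 0.36), and each of the 12 ended at least 1 call. Of 12 named for the difference from DN, 8 did (Art2b, Bcl11b, Cd27, Hes1, Klrb1b, Ltb4r1, Mmp9 and St3gal6; adjusted p = 0.050 to 0.23), again with each of the 12 libraries ending at least 1.

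**Figure D5:**
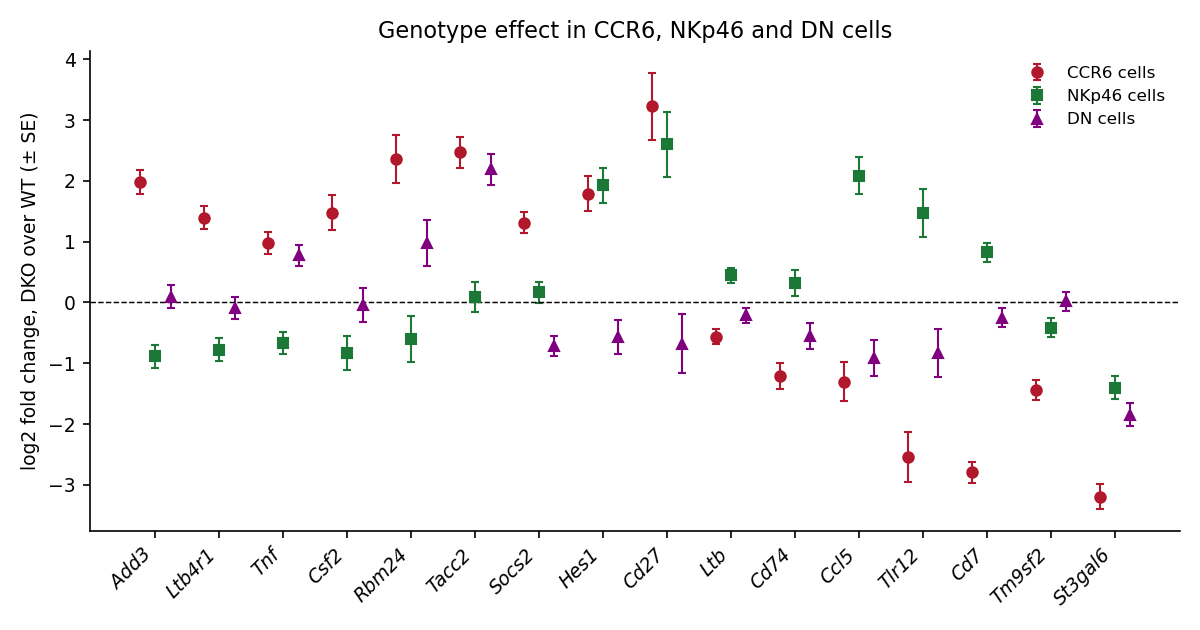
Log2 fold change, DKO over WT, with SE bars, in CCR6, NKp46 and DN cells for genes whose effect in CCR6 differed from that in NKp46 or DN cells; the dashed line is 0. Cd7, Ltb and Tlr12 lie below 0 in CCR6 and above 0 in NKp46 cells, and Add3, Tnf and Ltb4r1 the other way round.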

How the data were processed

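Bulk RNA-seq libraries were made from sorted cells of 4 populations and 2 genotypes, 3 per group, with the SMARTer low-input kit from 10 ng of RNA and 12 to 15 PCR cycles, per the labels' protocols; no molecular identifiers are named, so counts are reads, not molecules. The authors deposited raw whole-number counts per Ensembl gene. Tools listed in the submitters' processing notes, with no roles, include featureCounts 2.0.3, STAR 2.7.9a and Salmon 1.5.2; the build listed is mm10. How strand and multi-mapping reads were handled is not given.

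The table had 55774 rows; 168 IDs stood on more than 1 row (455 rows) with the same counts each time, and 1 row of each was kept, leaving 55487 genes. Genes were kept by edgeR's filterByExpr with default settings on the 8 groups (21286 genes), scaled by TMM and fitted with edgeR 4.0.16 (R 4.3.3) by robust quasi-likelihood on the 24 libraries together; each group had its own mean. The residual degrees of freedom were 16, with a common coefficient of biological variation of 0.573. The standard error is the size of the log2 fold change over the square root of F. P-values were adjusted over all genes tested. They measure the spread between libraries, which may be technical where libraries share animals. Alternatives used DESeq2 1.42.0 and limma voom 3.58.1. The fit was tested on simulated data. Positions are from GENCODE M21 on GRCm38. Tables and figures were made with Python 3.11.15, pandas 2.3.3 and matplotlib 3.10.9.

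Named genes were the deleted genes, Thra, Vav1 and sorting markers; up to 15 each way by fold among called, non-overlapping genes at 5 CPM or more; up to 10 each way by difference in CPM; up to 5 members per list by adjusted p; and up to 8 each way per difference of effects. Predicted genes, antigen receptor segments, sex-linked genes and genes with no symbol were left out of the rankings. Other called list members and genes said to be chosen after their values were seen were added. The comparison, the members and the lists were chosen with earlier results of these data known. Where a group had 0 reads, folds are bounds against 3 counts over the group; counting intervals are 95% and cover counting error only. Apart from cell type markers, list counts are given with medians in place of a test of the list. Medians not given above were -0.02 for matrix, -0.04 for arginine, -0.10 for glutathione, -0.07 for heme and -0.07 for mitophagy genes. Those of interferon, TGF-beta and immediate early genes were -0.12, -0.06 and 0.17. Some genes that the rule names are not reported here, though list counts include them.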

Additional observations from a re-analysis of the deposited data

Results flagged for a closer look

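Every result given here is a gene, named in the report or by the rule for named genes, whose genotype effect in CCR6 cells differed from that in NKp46 or DN cells by edgeR's test of the difference itself, at an adjusted p under 0.05 over all 21286 genes. With 3 libraries per group, no test for a single outlying library was made. The values are differences of log2 fold changes, the CCR6 effect minus that of the other population, with 3 DKO and 3 WT libraries behind each effect.

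Against NKp46 cells, 39 named genes differed. Higher values in CCR6 cells were found for genes of cytokine and lipid mediator signalling, Csf2 (2.30), Tnf (1.64), Ltb4r1 (2.17), Socs2 (1.15) and Bmp4 (3.92), and for the structural or adaptor genes Add3 (2.87), Tacc2 (2.38), Lat (1.28), Abi3bp (1.65), Lgals1 (2.04) and Cd44 (0.67). The same held for enzymes, Ak7 (3.61), Ephx1 (2.44), Acat1 (0.93) and Pfkp (0.93), and for Ccnd2 (1.18), Rbm24 (2.96), Pmepa1 (5.36) and B430306N03Rik (8.34). Lower values in CCR6 cells were found for lymphocyte receptor and effector genes, Cd7 (-3.62), Cd8b1 (-8.45), Cd160 (-1.17), Lag3 (-1.38), Klrb1c (-1.92), Gzma (-7.71), Ccl5 (-3.39), Ltb (-1.01), Tlr12 (-4.02) and Cd74 (-1.53). The remaining lower values were those of Bcl2 (-0.97), Bst2 (-1.74), Zfp683 (-6.64), Gstm1 (-1.41), Hpgds (-5.48), Ramp1 (-1.46), St3gal6 (-1.79), Pard3 (-4.77), Lypd6b (-3.30) and Ankrd35 (-9.13). Leaving out single libraries ended 19 of the 39 calls. Another tool, filter or design ended those of Ak7, Ankrd35, B430306N03Rik, Bmp4, Ccl5, Cd44, Ephx1, Gzma, Lypd6b, Pmepa1, Socs2 and Zfp683 (adjusted p = 0.053 to 0.59); for Pmepa1 these were voom (adjusted p = 0.055) and the 12 libraries alone (adjusted p = 0.12). Cd8b1, Gzma, Ankrd35, Zfp683 and B430306N03Rik are at or near 0 reads in a CCR6 group, so the fitted values for them depend on the prior count.

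Against DN cells, 15 named genes differed. Higher values in CCR6 cells were those of Add3 (1.88), Art2b (3.59), Bcl11b (1.99), Ccnd2 (1.34), Cd27 (3.90), Hes1 (2.35), Lat (1.23), Ltb4r1 (1.49), Mmp9 (1.65), Socs2 (2.03) and Vsir (1.11). Lower ones were those of Cd7 (-2.54), Klrb1b (-0.70), St3gal6 (-1.35) and Tm9sf2 (-1.45). Leaving out single libraries ended 10 of these 15 calls. Another tool, filter, scaling or design ended those of Art2b, Bcl11b, Cd27, Klrb1b, St3gal6 and Vsir (adjusted p = 0.051 to 0.15).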

How the results depend on the processing

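No named gene changed direction where it was called, and the direction of other genes was not checked. The 846 calls in CCR6 cells became 1330 with the DESeq2 Wald test, 1720 with limma voom, 1723 in the fit of the 6 CCR6 libraries alone and 1769 with the replicate block in that fit, and 573 to 635 with 1 library left out; 841, 814, 808 and 803 of the first 4 counts were among the 846. Other settings gave 864 (DESeq2 size factors), 886 (no filter), 958 (5 CPM in 3 libraries) and 1202 (without WT ILC1 replicate 2). The 90 differences from NKp46 cells became 178 with no filter, 142 with the 5 CPM filter, 325 with DESeq2, 147 with voom, 220 in the fit of the 12 libraries alone, 307 there with the replicate block, 228 without WT ILC1 replicate 2 and 55 to 94 with 1 library left out. The 27 differences from DN cells became 62, 165, 71, 166, 172 and 68 with no filter, DESeq2, voom, the 12 libraries alone, the replicate block there and WT ILC1 replicate 2 left out, and 7 to 25 with 1 library left out; the share above 0 was 70.4%, and 50%, 47.3% and 48.2% with no filter, DESeq2 and the 12 libraries alone. The 136 called members of the lists became 215 with the replicate block in the CCR6 libraries alone, and 107 to 114 with 1 library left out. Of 207 named genes called in CCR6 cells, 59 lost the call without some library. Deviations from group means in same-numbered DKO and WT CCR6 libraries correlated at -0.0075, -0.0074 and 0.014. Those of DN libraries correlated at 0.051, 0.0072 and 0.037, and those of NKp46 libraries at 0.031, -0.011 and 0.0092. With 3 libraries per group, these values cannot decide whether the numbers pair DKO with WT libraries. Within a genotype, same-numbered CCR6 and NKp46 or DN libraries deviated together weakly, all with positive correlations (0.0039 to 0.076). These lay below the 0.1 set in order to treat them as pairs, which does not exclude shared animals. No block by animal within a genotype was fitted, so the differences of effects treat same-numbered libraries as independent. Most differently numbered ones had negative correlations, which follows from removing group means where same-numbered ones are positive. The replicate block in all 24 libraries gave 901, 118, 34 and 149 calls. Lists that the CCR6 libraries alone moved by more than 1.5 times and not given above were TGF-beta signalling (4 called), heme (0), immediate early genes (7), mitophagy (2), B and plasma cell markers (2) and myeloid markers (2). Depth was 41.7 M reads or more in each CCR6 library; 3 libraries per group limit the precision.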

Other observations

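Some called genes were next to each other in order along a chromosome. Among 13872 adjacent pairs of genes that both averaged at least 1 CPM in either group, both members were called in CCR6 cells in 95 pairs. Of these, 38 pairs rose together, 43 fell together and 14 split. No limit on distance was set, and Rprm and Nr4a2, for example, lay 3021277 bases apart. Of all tested genes, 3.97% were called, and whether 95 pairs exceed the number that such a share gives was not tested. Pairs that rose, chosen after their values were seen, were Lat and Spns1 (3.10 and 1.93), 489 bases apart on the same strand, Hmcn2 and Ass1 (5.69 and 6.71), 9468 bases apart, Mmp9 and Slc12a5 (7.26 and 4.53), 4951 bases apart, and Pik3r5 and Pik3r6 (2.01 and 7.63), 5169 bases apart. Pairs that fell were Ddc and Grb10 (-3.24 and -3.73), 32363 bases apart, and Itga2 and Itga1 (-1.57 and -2.91), 20995 bases apart. Reads that run past the end of a gene may be counted to its neighbour, and the part of this was not tested. The Slc12a5 call was lost without any DKO replicate and any WT replicate (adjusted p = 0.068 to 0.20). The Grb10 call was lost without DKO replicates 2 and 3 and WT replicates 1 and 3 (adjusted p = 0.055 to 0.12) and with no filter and the Itga2 call without any DKO replicate and any WT replicate (adjusted p = 0.054 to 0.16) and with no filter and voom.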
